A study of Rattus norvegicus with 4 samples.

Results

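Mitochondrial import and respiratory assembly factors were described in carotid bodies (CBs) of neonatal and adult rats. The members were chosen by gene symbol: the numbered Timm and Tomm genes of the import translocases, the numbered Ndufaf, Sdhaf, Uqcc, Coa and Atpaf assembly factors, and Bcs1l, Sco1, Cox10, Cox11 and Cox14 to Cox20. The rule matched 58 of the 32883 gene entries, of which 54 reached 1 CPM, a count scaled to library size, in 2 or more libraries and entered the test. These 54 entries carry 53 symbols, because Coa8 has 2 entries. The remaining entries, Coa6, Cox14, Sdhaf1 and Timm8a2, held between 0 and 13 estimated counts in any library and were not tested. The rule also covers Timm23, Sco2, Surf1 and Coa1, but no entry carried these symbols, so they were not analysed here.

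RNA-seq had been performed on CBs from Sprague Dawley rats at postnatal day 5 (neonates) and day 21 (adults), with 2 libraries at each age. No treatment or engineered allele was used, both ages came from purchased pregnant dams, and the comparison asks how expression differs between the ages. CBs of 6 pups or 3 adults were pooled for each sample according to the series' design text. The study's methods instead give other pool sizes and 3 biological replicates. No library stands for a single animal. The study's methods state that part of the litter was kept to day 21, so the ages may share litters. Nothing in the labels ties the 2 libraries of an age to separate litters, and the p-values therefore measure only the spread between these pools. The CB is the small arterial organ at the carotid bifurcation whose glomus cells sense blood oxygen.

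Nearly all mitochondrial proteins are made in the cytosol and enter through the TOM complex of the outer membrane. From there the small TIM chaperones escort membrane proteins across the intermembrane space, the TIM23 complex takes proteins with a presequence into the matrix or inner membrane, and the TIM22 complex inserts carrier proteins. Assembly factors then insert cofactors, stabilise intermediates and join subunits of the respiratory complexes, without remaining in the finished enzyme. Glomus cells are known for a dependence of oxygen sensing on mitochondrial respiration.

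Promoter windows are shown for 6 members to give the sequence context of the genes on which the results turn: Timm8b, Tomm7, Tomm20 and Cox18, which were higher in neonates, and Tomm70 and Tomm40l, which were higher in adults. The 6 were picked after their values were seen. Each window holds 250 bases before and 50 bases after the annotated start, 5′ to 3′ on the strand of the gene, from RefSeq (assembly GRCr8, not the assembly to which the reads were mapped). Capitals mark matches, on either strand, to 4 motifs of factors known for mitochondrial genes: NRF1 (GCGCA and GCGC with any 1 base between them), the ETS family with GABPA (CCGGAAGT), YY1 (AAGATGGCG) and ERRA (TCAAGGTCA).
Timm8b, chr8:59850487-59850786, plus strand: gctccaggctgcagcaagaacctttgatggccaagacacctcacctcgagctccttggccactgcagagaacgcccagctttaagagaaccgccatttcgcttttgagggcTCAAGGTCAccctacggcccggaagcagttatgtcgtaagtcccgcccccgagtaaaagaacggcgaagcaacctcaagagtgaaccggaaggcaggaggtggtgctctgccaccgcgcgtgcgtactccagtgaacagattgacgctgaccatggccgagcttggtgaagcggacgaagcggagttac
Tomm7, chr4:12197253-12197552, plus strand: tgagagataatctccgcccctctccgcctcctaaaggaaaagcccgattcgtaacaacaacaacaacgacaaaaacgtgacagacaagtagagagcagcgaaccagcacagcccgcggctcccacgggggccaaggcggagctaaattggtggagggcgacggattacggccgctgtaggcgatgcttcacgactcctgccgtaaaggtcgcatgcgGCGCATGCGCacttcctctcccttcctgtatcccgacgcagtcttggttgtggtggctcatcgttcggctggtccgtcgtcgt
Tomm20, chr19:71832371-71832670, minus strand: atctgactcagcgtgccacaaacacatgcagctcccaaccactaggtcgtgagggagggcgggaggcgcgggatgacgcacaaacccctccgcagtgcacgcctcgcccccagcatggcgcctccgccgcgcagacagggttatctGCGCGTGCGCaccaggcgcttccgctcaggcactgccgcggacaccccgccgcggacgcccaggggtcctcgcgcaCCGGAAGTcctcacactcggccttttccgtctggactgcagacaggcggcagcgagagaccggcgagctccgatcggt
Cox18, chr14:18149746-18150045, plus strand: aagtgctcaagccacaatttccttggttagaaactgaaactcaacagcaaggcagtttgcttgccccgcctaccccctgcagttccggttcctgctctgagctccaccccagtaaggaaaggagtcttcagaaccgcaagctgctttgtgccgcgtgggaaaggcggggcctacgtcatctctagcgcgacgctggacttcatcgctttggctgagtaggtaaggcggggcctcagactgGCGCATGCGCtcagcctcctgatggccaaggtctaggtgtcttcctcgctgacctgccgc
Tomm70, chr11:56886227-56886526, minus strand: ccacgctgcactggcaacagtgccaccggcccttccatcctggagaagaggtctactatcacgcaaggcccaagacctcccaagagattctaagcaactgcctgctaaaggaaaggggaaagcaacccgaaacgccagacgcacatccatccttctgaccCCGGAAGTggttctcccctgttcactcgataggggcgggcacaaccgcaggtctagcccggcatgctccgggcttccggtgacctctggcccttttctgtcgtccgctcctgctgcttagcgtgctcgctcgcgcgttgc
Tomm40l, chr13:86174072-86174371, minus strand: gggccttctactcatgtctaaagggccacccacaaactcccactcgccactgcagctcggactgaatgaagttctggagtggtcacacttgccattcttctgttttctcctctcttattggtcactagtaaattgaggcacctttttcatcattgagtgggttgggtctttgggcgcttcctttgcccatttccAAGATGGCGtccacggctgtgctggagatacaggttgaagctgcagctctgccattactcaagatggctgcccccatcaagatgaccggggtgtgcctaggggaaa

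Of the 53 tested symbols, 49 had a promoter window. The NRF1 motif was found in 10 of the 49 windows (20.4%), against 9.90% of the 10284 windows of all genes tested and 4.82% of all 27457 windows. Matches to the ETS motif stood in 9 windows (18.4%), against 7.89% of genes tested and 4.20% of all windows, and to YY1 in 5 (10.2%), against 3.70% and 1.99%. The ERRA motif occurred in 1 member, Timm8b, against 0.282% of genes tested and 0.441% of all windows. No base lay in more than 1 motif. By direction, NRF1 letters were present in 6 of 29 windows of members higher in neonates, in 0 of 4 windows of members lower in neonates and in 4 of 16 windows of members without a call. ETS letters were present in 6, 2 and 1 of the same windows. A match is a run of letters and not a measured binding site, and these shares carry no test.

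The libraries held 36286191 to 39476110 estimated counts, and values below are CPM scaled by TMM (trimmed mean of M-values) factors. A gene at 3 counts, the level taken as the floor of detection, stood between 0.0736 and 0.0845 CPM. Glomus markers such as Th, tyrosine hydroxylase, were present in every library (1020 and 837 CPM in neonates, 1407 and 1135 CPM in adults). Several marker lists moved with age. Parathyroid markers summed to 1796 and 212 CPM in neonates against 0.0245 and 0.0504 CPM in adults, where Pth and Gcm2 were at 0, and they set neonatal library 1 apart. Erythroid markers summed to 8905 and 5173 CPM against 2148 and 1928 CPM (5 of 5 higher in neonates), and proliferation markers to 534 and 454 CPM against 111 and 113 CPM (6 of 6 higher). Summed levels in the remaining lists, with neonates first, were 6292 to 7479 against 7061 to 8977 CPM for 12 glomus markers, 867 to 1697 against 1464 to 1565 for glia, 755 to 790 against 666 to 688 for endothelium and 12937 to 15464 against 16628 to 18394 for fibroblasts. Macrophage markers summed to 49.9 to 57.1 against 85.5 to 86.8 CPM, skeletal muscle markers to 25.4 to 29.8 against 48.6 to 52.8 CPM, and brown adipocyte markers to 5.07 to 5.15 against 4.37 to 9.95 CPM. The part of these lists in the results that follow was not tested. In bulk tissue, fewer cells of a type and less RNA per cell cannot be told apart.

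Most import and assembly factors were higher in neonatal CBs, by less than 2-fold, while a few stood higher in adults. Of the 54 members tested, 29 (53.7%) were higher in neonates, where 31.2% of the 13843 genes tested were called, and 5 (9.26%) were lower, where 31.1% of all genes were called (edgeR's quasi-likelihood test, Benjamini-Hochberg adjusted p under 0.05). The other 20 had no call. Past 2-fold there were 1 member higher (Timm8b, where 7.68% of all genes were) and 2 lower (Tomm70 and Tomm40l, where 13.2% were). The median log2 fold change, neonate over adult, was 0.38 over the members, or 1.30-fold, and -0.0029 over all genes tested. The ages did not overlap in 48 of 54 members (88.9%), against 83.0% of all genes, with neonates above in 35 (41.3% of all genes) and adults above in 13 (41.7% of all genes). Together the members made up 0.177% and 0.178% of neonatal counts and 0.171% and 0.167% of adult counts.

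These counts depend on the scaling. With library size alone in place of TMM, 15 members were higher and 15 lower. Of all 13843 genes tested, 2587 were then higher and 5997 lower. The median member moved to 0.13, and the median of all genes moved from -0.0029 to -0.25. Measured from the median of all genes, the median member was 0.38 higher under both scalings, and 37 of the 54 members were above that median under both. A change of scaling moves every gene by about the same amount, so this distance could hardly differ and is no check on the calls. Of the 34 calls, 20 were kept with library size alone. All 34 were kept with RLE (relative log expression) size factors, with 29 members higher and 5 lower. Of all genes, 4319 were higher and 4284 lower in that fit. TMM factors taken without mitochondrially encoded and ribosomal protein genes gave the same 29 and 5, with 4376 and 4273 of all genes. Without neonatal library 1, the library with the high parathyroid markers, the median was 0.34. Fewer members were called higher in that fit, and fewer of all genes were too.

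**Figure D1:**
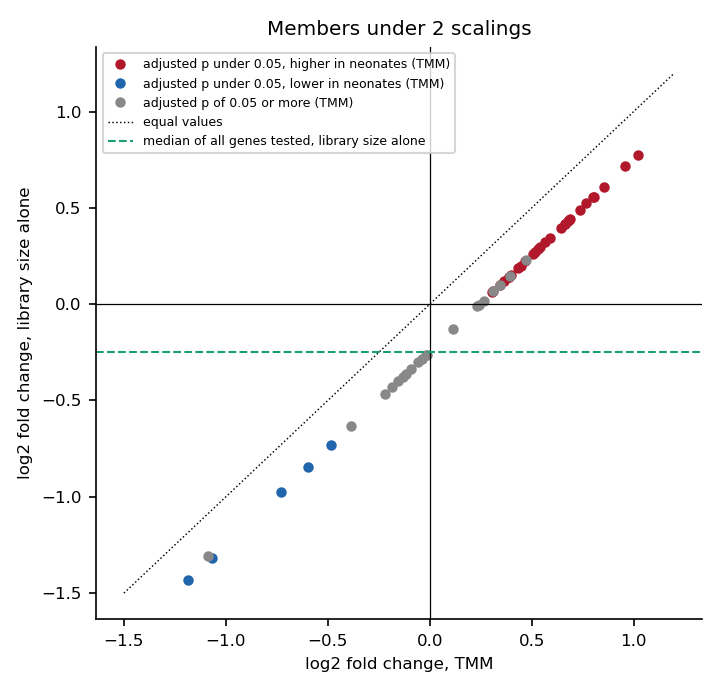
Log2 fold change, neonate over adult, of the 54 members with TMM scaling (x axis) and with library size alone (y axis), coloured by the call with TMM. Points follow a line parallel to that of equal values and about 0.25 below it, the same shift as the median of all genes (dashed, -0.25). A common shift of this kind follows from the change of scaling itself.

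**Figure D2:**
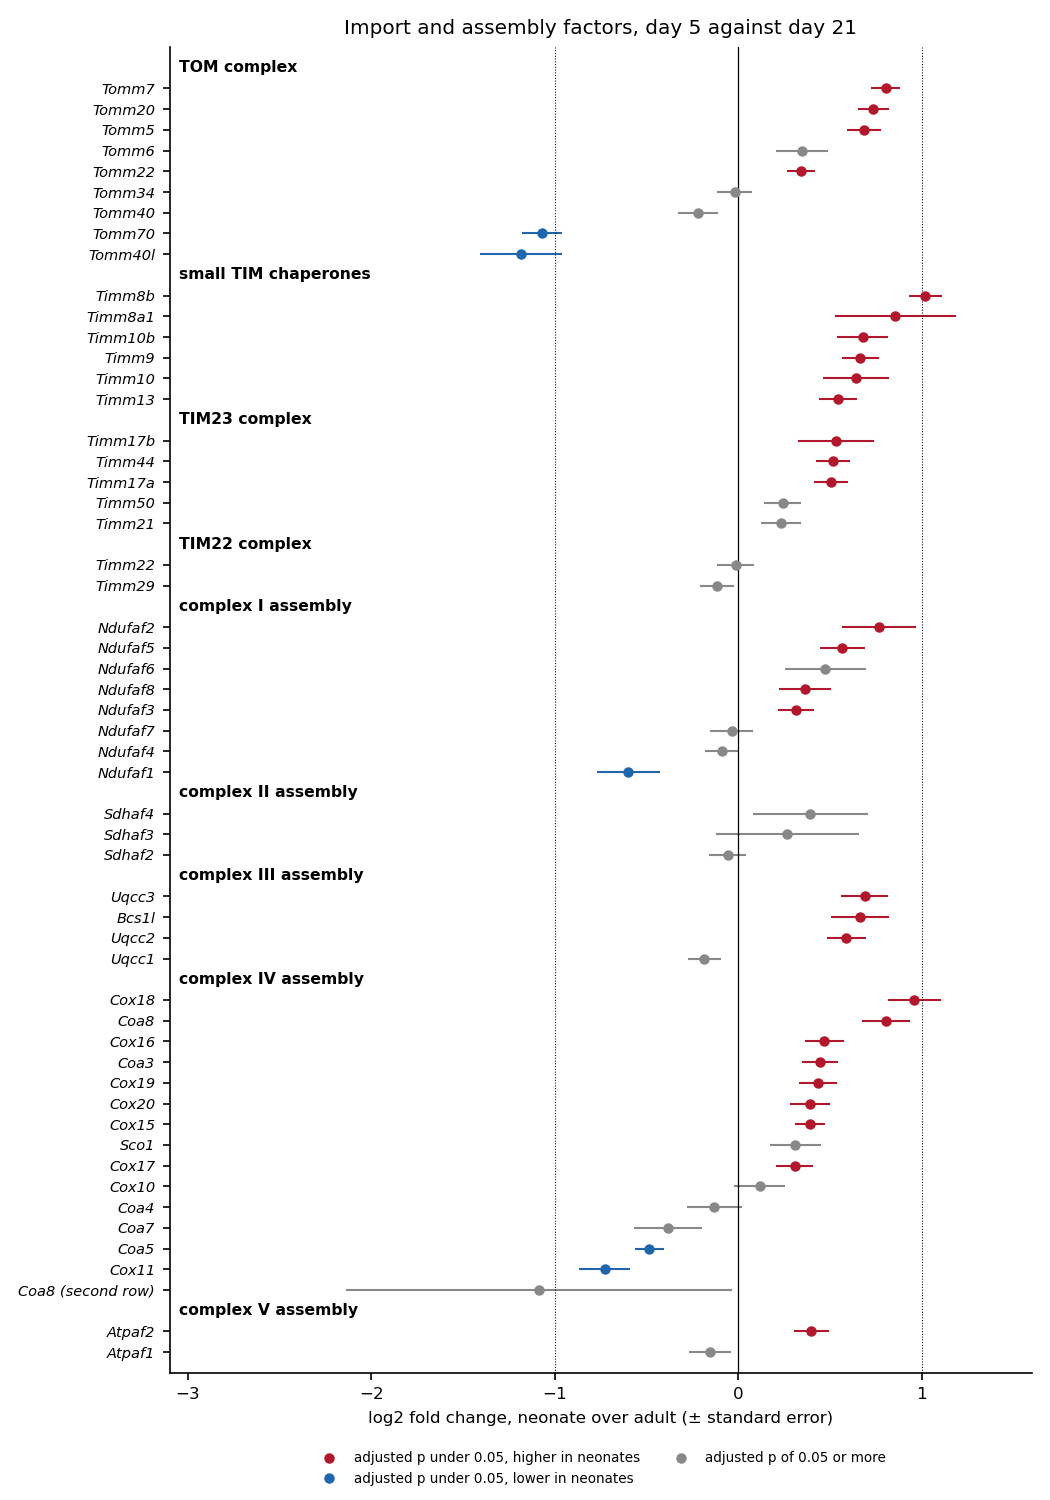
Log2 fold change, neonate over adult, of each of the 54 members tested, with the standard error as a bar, grouped by role and ordered by size; dotted lines mark 2-fold and colours mark the call by edgeR's quasi-likelihood test. Small TIM chaperones all lie between 0.54 and 1.02, whereas the TOM complex runs from -1.18 for Tomm40l to 0.80 for Tomm7.

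Of 9 genes grouped by symbol with the TOM complex, Tomm34 among them, 4 were higher in neonates and 2 lower. These are near the shares of all genes called (31.2% and 31.1%). The other 3 had no call, and the median log2 fold change of the group was 0.34. The split was 3 higher and 4 lower with library size alone. Tomm7, a small subunit that regulates the stability of the complex, stood at 118 and 112 CPM in neonates and at 65.2 and 66.5 CPM in adults. The ages were well apart, and the log2 fold change was 0.80 (SE 0.079, edgeR quasi-likelihood adjusted p = 4.37e-05). Tomm20, the receptor for presequences, was named after its values were seen, at 252 and 244 CPM against 158 and 140 CPM. Both neonatal libraries lay above both adult libraries, by 0.73 on the log2 scale (SE 0.085, edgeR adjusted p = 0.000103). Tomm5, another small subunit, and Tomm22, the central receptor and organiser, were also higher, by 0.68 and 0.34 on the log2 scale. For Tomm22 the call was lost with library size alone (0.098). Tomm6, the remaining small subunit, differed by 0.35 without a call (edgeR adjusted p = 0.0619) and passed without neonatal library 2 (0.44). The difference of Tomm34, a cytosolic cochaperone with the same symbol prefix, was -0.021 with overlapping ages.

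Tomm70 (ENSRNOG00000001640), the receptor for carrier precursors and their cytosolic chaperones, ran the other way. It was at 14.7 and 13.7 CPM in neonates and at 29.8 and 29.7 CPM in adults, 2.10-fold higher in adults (log2 fold change -1.07, SE 0.11, edgeR quasi-likelihood adjusted p = 4.82e-05). Its 2 adult libraries were almost equal, and the gap between ages was many times the spread within either. Estimated counts of Tomm70 were not whole numbers, as occurs where the quantifier divides reads among transcripts. The promoter window of Tomm70 printed above holds ETS letters.

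Tomm40, the channel of the outer membrane, was at 18.2 and 19.6 CPM in neonates and 21.6 and 22.4 CPM in adults. The adult libraries were above the neonatal ones, but the difference of -0.22 on the log2 scale had no call (SE 0.11, edgeR adjusted p = 0.109), and it gained one with library size alone (-0.46). Its paralog Tomm40l (ENSRNOG00000003398) was at 5.21 and 3.95 CPM against 9.69 and 11.1 CPM. Adults were 2.27-fold higher (log2 fold change -1.18, SE 0.22, edgeR quasi-likelihood adjusted p = 0.00161), the lowest value of all 54 members. Calls for Tomm70 and Tomm40l held in all 14 alternatives, with ranges of -1.32 to -1.01 and -1.43 to -0.99, the last inside 2-fold and found without neonatal library 2.

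**Figure D3:**
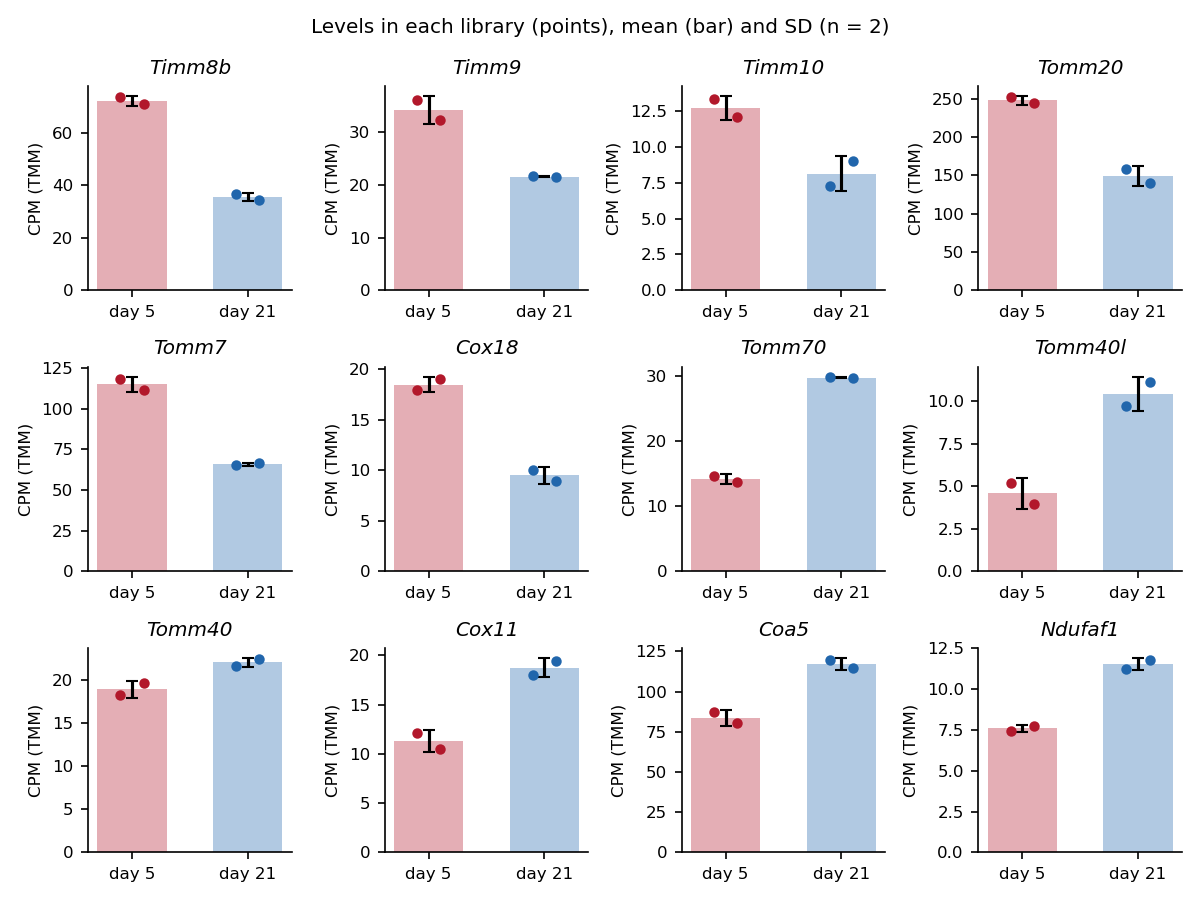
CPM with TMM scaling of 12 members in each library (points), with the mean as a bar and the SD as a whisker (n = 2 per age); axes start at 0 and differ between panels, so heights are not comparable between genes. The upper row and the first 2 genes of the middle row are higher at day 5, and the other 6 are higher at day 21, Tomm40 by too little for a call.

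All small TIM chaperones tested moved one way: 6 of 6 were higher in neonates, against 31.2% of all genes. Their median was 0.67 on the log2 scale, or 1.59-fold. Timm8b (ENSRNOG00000009888), a chaperone of the intermembrane space whose promoter window alone holds ERRA letters, stood at 73.5 and 70.8 CPM in neonates against 36.7 and 34.5 CPM in adults. It was 2.03-fold higher in neonates, the largest rise of any member (log2 fold change 1.02, SE 0.091, edgeR quasi-likelihood adjusted p = 2.80e-05). The value sat at the 2-fold line: it was 0.99 without neonatal library 1, 0.98 without adult library 2, and 0.77 with library size alone, with the call kept in all 14 alternatives. Timm8a1, its paralog, was at 4.42 and 3.17 CPM against 2.48 and 1.71 CPM, with a log2 fold change of 0.86 and a wide error (SE 0.33, edgeR adjusted p = 0.0469). That call was lost in 6 of 13 alternatives, among them leaving out neonatal library 1 (0.60), adult library 1 (1.15) or adult library 2 (0.61).

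Timm13, which pairs with the Timm8 proteins, was at 60.2 and 51.0 CPM in neonates and 38.5 and 37.9 CPM in adults. It differed the least of the 6, by 0.54 (SE 0.10, edgeR adjusted p = 0.00185). Timm9, Timm10 and Timm10b were named after their values were seen. Timm9 was at 36.1 and 32.3 CPM against 21.6 and 21.5 CPM, and Timm10, its partner in a carrier-escorting hexamer, at 13.3 and 12.1 CPM against 7.26 and 8.996 CPM. Neonates were above adults in both, by 0.66 and 0.64 on the log2 scale. Timm10b, which docks the hexamer on TIM22, stood at 23.9 and 19.2 CPM against 13.6 and 13.4 CPM, a log2 fold change of 0.68. The Timm10 call was lost without adult library 1 (0.50, edgeR adjusted p = 0.105) and with library size alone (0.39), and those of Timm9, Timm10b and Timm13 held in all 14 alternatives. With library size alone all 6 values stayed above 0, those of Timm8a1 (0.61) and Timm10 without a call. Timm8a2, the seventh entry, held 0 to 5 counts.

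The TIM23 complex had 3 of 5 members higher and none lower, against 31.2% and 31.1% of all genes, with a median of 0.51. Timm17a, a core subunit of the complex, was at 62.2 and 62.1 CPM in neonates against 46.0 and 41.5 CPM in adults. Its log2 fold change was 0.51 (SE 0.094, edgeR adjusted p = 0.00152). Its paralog Timm17b was at 8.67 and 7.79 CPM against 5.50 and 5.90 CPM, with nearly the same log2 fold change of 0.53 but an error more than 2 times as large (SE 0.21, edgeR adjusted p = 0.0488). The Timm17b call was lost in 8 of 14 alternatives, including those without neonatal library 1 (0.45), adult library 1 (0.48), adult library 2 (0.58) and that with library size alone (0.28). Timm44, which tethers the import motor to the channel, was higher by 0.52. Timm50, the receptor of the complex, and Timm21, which links it to TOM and to newly imported subunits, differed by 0.24 and 0.23 without a call, and both turned to about 0 with library size alone (-0.0038 and -0.012). Timm21 was at 28.5 and 32.6 CPM in neonates and 27.5 and 24.5 CPM in adults, and passed the test without neonatal library 1 (0.33).

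Neither member grouped with the TIM22 complex passed the test in either direction. Agk, a further subunit outside the rule, is described below with other parts of the import route. Timm22, the channel that inserts carriers, was at 39.9 and 34.2 CPM in neonates and 37.2 and 37.7 CPM in adults, so that the adult libraries lay between the neonatal ones (log2 fold change -0.015, SE 0.10). Timm29, an accessory subunit, was at 42.7 and 46.0 CPM against 48.3 and 48.0 CPM (-0.12, SE 0.091, edgeR adjusted p = 0.284). Both were called lower with library size alone (-0.26 and -0.36).

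Ratios within a library do not depend on the scaling between libraries. They are ratios of estimated counts and not of molecules, and with 2 libraries against 2 the exact permutation test (two-sided) cannot go below p = 0.333. Timm17a over Timm17b was 7.17 and 7.96 in neonates and 8.37 and 7.04 in adults, with overlapping ages (exact permutation p = 1). Timm8a1 over Timm8b was 0.0601 and 0.0448 against 0.0676 and 0.0496, which also overlapped (exact permutation p = 0.667). For Tomm40 over Tomm40l the ratios were 3.49 and 4.95 in neonates and 2.23 and 2.01 in adults. Both neonatal values lay above both adult values, by 0.97 on the log2 scale, and the exact permutation p of 0.333 was the smallest possible. The last pair, of the receptors Tomm70 and Tomm20, was chosen after values were seen, and its difference is given with no test. Tomm70 over Tomm20 was 0.0582 and 0.0560 in neonates and 0.189 and 0.212 in adults, 3.50-fold higher in adults.

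**Figure D4:**
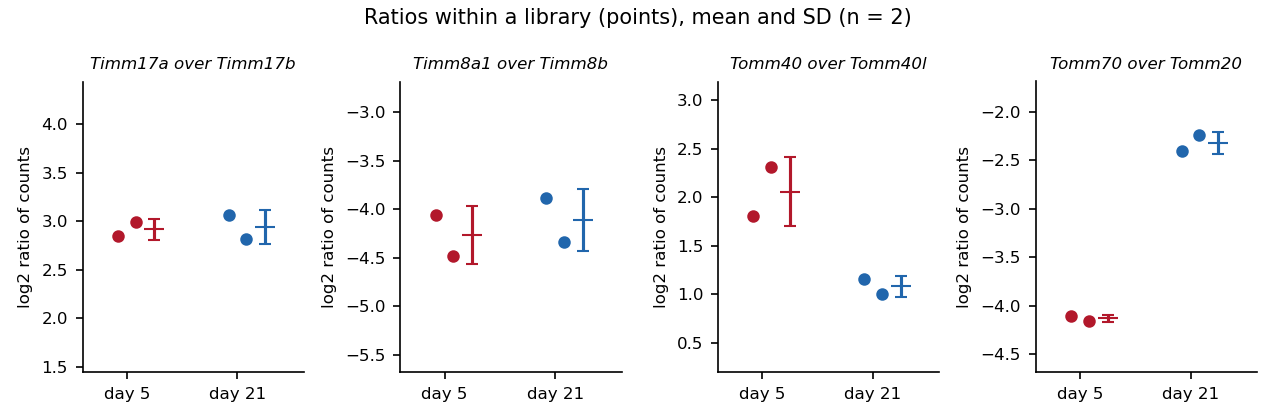
Log2 ratio of estimated counts within each library (points) for 4 pairs of import genes, with the mean and SD beside them (n = 2 per age); all panels span the same width on the log2 scale. The Timm17 and Timm8 pairs overlap between ages, Tomm40 over Tomm40l is 0.97 higher at day 5 and Tomm70 over Tomm20 is 1.81 lower.

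Complex I assembly factors had 4 of 8 members higher in neonates and 1 lower, against 31.2% and 31.1% of all genes. Their median was 0.34. Only 1 was higher, Ndufaf5, and 2 were lower, Ndufaf1 and Ndufaf4, with library size alone. Ndufaf2, which acts at a late step, was at 8.93 and 9.80 CPM in neonates and 5.87 and 5.14 CPM in adults. The libraries of the ages did not overlap, and the log2 fold change was 0.77 (SE 0.20, edgeR adjusted p = 0.00973), a call lost without adult library 2 (0.67) and with library size alone (0.52). Ndufaf1, which helps to build the membrane arm, went the other way, at 7.46 and 7.77 CPM against 11.3 and 11.8 CPM. It was 1.52-fold higher in adults (log2 fold change -0.60, SE 0.17, edgeR adjusted p = 0.0140), with the call lost without adult library 1 (-0.63) or adult library 2 (-0.56). Ndufaf5, which modifies a core subunit, was higher by 0.57, its partner Ndufaf8 by 0.37 and Ndufaf3, an early factor, by 0.31. For Ndufaf8 no call remained when any 1 library was left out (0.28 to 0.45), and the Ndufaf3 call was lost without neonatal library 1 (0.24) or adult library 2 (0.26). Both were also lost with library size alone (0.12 and 0.066). The remaining differences, of 0.47 for Ndufaf6, -0.090 for Ndufaf4 and -0.037 for the methyltransferase Ndufaf7, had no call. Ndufaf6 passed without neonatal library 2 (0.65), and Ndufaf4 was called lower with library size alone (-0.34).

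None of the 3 complex II factors tested passed, and in each the ages overlapped. Sdhaf2, which attaches the flavin to the catalytic subunit, was at 55.4 and 64.6 CPM in neonates and 64.7 and 60.2 CPM in adults (log2 fold change -0.058, SE 0.10), and was called lower with library size alone (-0.30). Sdhaf4, which binds the flavinated subunit, was at 4.08 and 3.34 CPM against 3.41 and 2.24 CPM (0.39, SE 0.31, edgeR adjusted p = 0.298). Sdhaf3, an iron-sulphur factor of Sdhb, differed by 0.27 with an SE of 0.39, so that only a large change would have been detectable in either of these low genes. Sdhaf1 had reads in neonatal library 2 alone, at 0.195 CPM.

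Complex III factors had 3 of 4 members higher in neonates, against 31.2% of all genes, and a median of 0.62. Uqcc3, a factor for cytochrome b, was at 37.0 and 29.0 CPM in neonates and 21.2 and 19.8 CPM in adults. Neonates were above adults by 0.69 on the log2 scale (SE 0.13, edgeR adjusted p = 0.00149). Bcs1l, which inserts the Rieske iron-sulphur protein, was higher by 0.66 and Uqcc2, a partner of Uqcc1 in cytochrome b synthesis, by 0.59. Uqcc1 itself was at 33.8 and 36.3 CPM against 39.8 and 40.1 CPM. Adults lay slightly above neonates with no call (-0.19, SE 0.091, edgeR adjusted p = 0.100), and it was called lower with library size alone (-0.43).

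Complex IV had the most factors, and 8 of the 15 entries tested were higher in neonates, 2 lower and 5 without a call. Over all genes, 31.2% were higher and 31.1% lower. The median of these entries was 0.31. Under library size alone only Cox18 and 1 Coa8 entry were called higher, and 4 were lower, Coa4 and Coa7 joining Cox11 and Coa5. Cox18 (ENSRNOG00000003052), which helps to insert the mitochondrially encoded subunit Mt-co2 into the inner membrane, was at 17.9 and 19.0 CPM in neonates and 10.1 and 8.92 CPM in adults. Neonates were 1.94-fold higher (log2 fold change 0.96, SE 0.14, edgeR quasi-likelihood adjusted p = 0.000409), a call that held in all 14 alternatives (0.72 to 1.05). Cox20, the chaperone that hands Mt-co2 on, was higher by 0.39, Cox16, a further Mt-co2 factor, by 0.47, and Coa3, which stabilises new Mt-co1, by 0.44. Among the factors for copper, Cox19 was higher by 0.43 and Cox17, the donor of copper, by 0.31. Sco1, which passes copper to Mt-co2, was at 20.5 and 25.8 CPM in neonates and 19.9 and 17.4 CPM in adults. Neonates were above adults with a wide spread, and the difference of 0.31 had no call (SE 0.14, edgeR adjusted p = 0.0796), though it passed without neonatal library 1 (0.47). Of the heme A enzymes, Cox15 was higher by 0.39 and Cox10 differed by 0.12 without a call. The Cox20 and Cox17 calls were lost without neonatal library 1 (0.31 and 0.28) or adult library 2 (0.36 and 0.20), and that of Cox17 also without the filter on low counts (0.28). Under library size alone the calls of Cox16 (0.22), Coa3 (0.20), Cox19 (0.19), Cox20 (0.14), Cox15 (0.14) and Cox17 (0.061) were all lost.

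Lower in neonates were Cox11 and Coa5, both named after their values were seen. Cox11, which delivers copper to Mt-co1, was at 12.1 and 10.5 CPM in neonates and 18.0 and 19.5 CPM in adults. Adults were 1.66-fold higher with no overlap (log2 fold change -0.73, SE 0.14, edgeR adjusted p = 0.00169). Coa5, a twin-cysteine protein needed for complex IV, was at 87.1 and 80.2 CPM against 119.9 and 114.4 CPM, 1.40-fold higher in adults (-0.49, SE 0.080, edgeR adjusted p = 0.000761). Both calls held in all 14 alternatives. Coa7 and Coa4, further factors of the complex, differed by -0.38 and -0.13 without a call, and were called lower with library size alone (-0.63 and -0.38).

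Coa8, a complex IV factor, was split between entries whose estimated counts were not whole numbers, so reads that fit both cannot be placed for certain. The first (ENSRNOG00000011542), named after its values were seen, was at 30.8 and 24.4 CPM in neonates and 15.7 and 15.9 CPM in adults. Its log2 fold change was 0.81 (edgeR adjusted p = 0.000725). The second (ENSRNOG00000058920) was at 0 and 5.04 CPM against 5.60 and 5.12 CPM. One neonatal library at 0 therefore decides its value, with a log2 fold change of -1.09 and an SE of 1.05. That value was -0.086 without neonatal library 1. Limma-voom gave -4.32 and the fit with replicate number as a block -2.10, both called lower, and the call therefore depends on the fit. Because the neonatal side is then wholly at 0, leaving out neonatal library 2 gives no usable fold. With both entries summed, Coa8 was higher in neonates by 0.51 (edgeR adjusted p = 0.00167).

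For complex V, Atpaf2, the chaperone of the F1 alpha subunit, was at 33.5 and 31.8 CPM in neonates and 24.8 and 24.8 CPM in adults. The ages were apart, with a log2 fold change of 0.40 (SE 0.094, edgeR adjusted p = 0.00542) that fell to 0.15 without a call under library size alone. Atpaf1, the chaperone of the beta subunit, was at 17.0 and 18.2 CPM against 19.9 and 19.4 CPM. Adults were slightly above (-0.16, SE 0.11) with no call (edgeR adjusted p = 0.257), and it was called lower with library size alone (-0.40).

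Nuclear-encoded subunits of the complexes, on a list that is separate from the members, were nearly all higher in neonates. Of 73 subunits tested, 70 were higher and 1, Ndufs1, was lower, against 31.2% and 31.1% of all genes. The median log2 fold change was 0.67, and the values ran from -0.57 for Ndufs1 to 1.11 for Cox5a. By complex, the subunits higher were 32 of 33 in complex I (median 0.62, against 0.34 for its assembly factors), 3 of 4 in complex II (0.39 against 0.27), 9 of 9 in complex III (0.71 against 0.62), 11 of 11 in complex IV (0.80 against 0.31) and 15 of 16 in complex V (0.72 against 0.12). All 13 mitochondrially encoded subunits were higher, from 0.85 for Mt-nd2 to 1.36 for Mt-co2, with a median of 1.17. With library size alone, complex II had 1 subunit higher and 1 lower. Subunit and factor values come from the same 4 libraries and the difference between their medians was not tested.

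**Figure D5:**
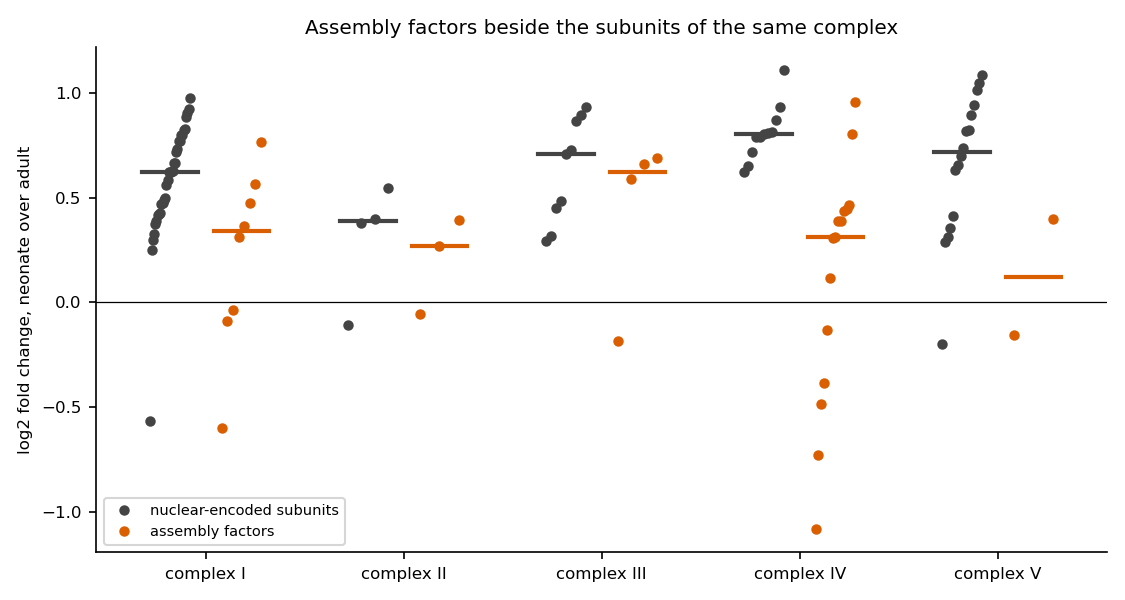
Log2 fold change, neonate over adult, of nuclear-encoded subunits (grey) and assembly factors (orange) of each respiratory complex, 1 point per gene entry, with the median as a line. The subunit median lies above the factor median in each complex, by the most in complexes IV and V, and the factors reach from -1.09 to 0.96. The point at -1.09 is the second Coa8 entry, whose value is set by 1 neonatal library at 0 (SE 1.05).

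Other parts of the import route, from a list without the members, had 10 of 23 genes higher in neonates and 4 lower. Over all genes tested the shares were 31.2% and 31.1%. The median of the list was 0.16. Hspe1, the cochaperonin of the matrix, was the highest at 0.83, whereas Hspd1, its chaperonin partner, chosen after its value was seen, differed by 0.059 without a call. Hspa9, the ATPase of the import motor, was also chosen after its values were seen and was at 103 and 111 CPM in neonates and 206 and 199 CPM in adults. It was 1.89-fold higher in adults (log2 fold change -0.92, SE 0.077, edgeR quasi-likelihood adjusted p = 2.04e-05). The other 3 lower genes were Mtx3, a metaxin (-1.54), Agk, a lipid kinase that is also a subunit of TIM22 (-1.03), and Mipep, a presequence peptidase (-0.65). Fewer of the list were called higher without adult library 2, where fewer of all genes were too, and with library size alone (2). Further assembly factors had 12 of 26 genes higher and 1, Tmem177, lower (-0.78), with a median of 0.26 and Chchd7 the highest at 0.92. Their higher count was 3 with library size alone. It also fell without adult library 2, as did that of all genes. The Tmem177 call was lost without adult library 1 or 2.

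Genes used as readouts of mitochondrial content and its regulators showed no common direction, with 7 of 17 higher in neonates, 8 lower and a median of -0.029. Shares of all genes called were 31.2% and 31.1%. The porin gene Vdac1 was the highest, at 0.66, with 227 and 219 CPM against 146 and 137 CPM. Ppargc1a, a coactivator of mitochondrial biogenesis, was the lowest, at -1.48, with 0.591 and 0.557 CPM against 1.40 and 1.81 CPM. Citrate synthase, Cs, chosen after its values were seen, had a log2 fold change of -0.58 and was at 61.6 and 59.2 CPM against 90.2 and 90.5 CPM. Of the factors whose motifs were searched, Nrf1 (-0.34) and Gabpa (-0.43) were lower in neonates and Esrra differed by -0.029 without a call. With library size alone the higher count was 2. Without adult library 2 the lower count fell, as did that of all genes.

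Within an age, the members varied little: the median absolute log2 difference between libraries was 0.13 in neonates (53 entries above 0 in both libraries) and 0.098 in adults (54 entries). It reached 0.88 in neonates, for Sdhaf3, and 0.61 in adults, for Sdhaf4, both genes of few reads.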

How the data were processed

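Poly(A) RNA-seq libraries of neonatal (day 5) and adult (day 21) CBs were grouped by their labels, 2 per age. Per the study's methods and the processing notes in the labels, the authors mapped reads to rat Rnor_6.0, quantified them with Salmon (version 1.5.2), and deposited estimated counts per gene, without normalization. These expected counts are not all whole, and were rounded. Totals of 36286191 to 39476110 were taken with a floor of 3 counts, which covers counting error only. Entries annotated in RefSeq (GRCr8, matched by symbol or synonym) as other than protein-coding (636 of 32883) were removed. Genes that did not reach 1 CPM in at least 2 libraries were also removed, leaving 13843. Differences were tested across all of them with edgeR 4.0.16 (R 4.3.3; TMM, quasi-likelihood F-test, Benjamini-Hochberg adjustment, threshold 0.05); the SE is the log2 fold change divided by the square root of F. Lists are described by counts and medians.

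The members and lists were chosen with earlier results of these data known. Members described library by library were those past 2-fold, the highest and lowest of each role and the paralogs, or are said to have been chosen after their values were seen. Alternatives were DESeq2 1.42.0, limma-voom (limma 3.58.1), other scalings and filters, replicate number as a block, and each library left out. On simulated counts for this comparison (13843 genes, 50 changed at each size), 25 genes were recovered at 1.5-fold, 39 at 2-fold, 45 at 3-fold and 50 at 4-fold, and 5 unchanged genes were called. Far fewer genes changed there than in the data, where 31.2% were called higher and 31.1% lower. The recovery and the false calls may therefore not carry over.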

Additional observations from a re-analysis of the deposited data

How the results depend on the processing

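Precision rests on 2 pooled libraries per age. With library size alone, 15 members were higher, 15 lower and 0 higher past 2-fold, with a median of 0.13. Of all 13843 genes, 2587 were then higher and 5997 lower. No member was higher past 2-fold without a filter on low counts (0) or with a mean of at least 5 CPM (0), where Timm8b was at 0.99 and 0.98 and the median with 5 CPM was 0.34. Leaving out each library in turn gave medians of 0.31 to 0.41. Each such fit has 1 library at an age. Fewer of all genes were called in either direction than with all 4 libraries. The fewest members were called higher without adult library 2, where none was past 2-fold. Those called higher past 2-fold were Cox18 without neonatal library 1, and Timm8b and Timm8a1 without neonatal library 2. Without adult library 1 they were Cox18 and Timm8b. Those lower past 2-fold were Tomm70 and Tomm40l, except without neonatal library 2, where Tomm40l was at -0.99 and the second was the Coa8 entry with a neonatal library at 0. DESeq2 gave 26 higher and 5 lower, and limma-voom 29 and 6, the added one being that Coa8 entry. Of all genes, DESeq2 called 4156 higher and 4115 lower, and limma-voom 4352 and 4382. Leaving out single libraries moved the difference in the Timm17a to Timm17b ratio between -0.15 and 0.10, and in the Timm8a1 to Timm8b ratio between -0.38 and 0.066, so neither has a stable sign. Members that changed sign had no call. With library size alone these were Timm50 (-0.0038), Timm21 (-0.012) and Cox10 (-0.13). When each library was left out in turn, Timm22 ranged from -0.13 to 0.10, Tomm34 from -0.078 to 0.039 (0.038 without neonatal library 2), Ndufaf7 from -0.13 to 0.058, Sdhaf3 from -0.24 to 0.65 and Sdhaf2 from -0.17 to 0.050. The causes were not tested. A planned ratio of Sco1 to Sco2 was not run, because no entry carried the symbol Sco2.

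Replicate numbers are shared by the ages. The replicate differences of neonates and adults correlated at r = -0.015 across 13843 genes, which are not independent. With a single difference per age, this cannot tell whether the libraries of the ages are paired. With replicate number as a block, 31 members were higher and 6 lower, with 1 and 3 past 2-fold, a median of 0.38, and 33 of the 34 calls kept. Of all 13843 genes, 4542 were higher and 4551 lower in that fit. The call of Timm17b was lost, and Timm50 (0.24), Tomm6 (0.35), Sco1 (0.30) and the Coa8 entry (-2.10) gained one. That entry is the added lower call and the added one past 2-fold.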
